A study of Mus musculus with 12 samples.

Results

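Genes of lipogenesis, triglyceride synthesis and lipid droplets were examined in mouse livers that had lost HNF4A and in fibroblasts made to express it. The group holds 43 genes that were chosen by function, with earlier results of these data known, and matched by symbol. All 43 were found among the 24340 gene entries of each of the 2 RNA-seq tables. By role, 9 belong to fatty acid synthesis, 11 to elongation and desaturation, 10 to the glycerolipid steps, and 13 are droplet proteins and lipases. HNF4A is a nuclear receptor that maintains the hepatocyte gene program.

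The *Hnf4a* cKO mice were adults with floxed *Hnf4a* alleles (*Hnf4a* fl/fl) and a Cre recombinase that the albumin promoter drives and tamoxifen switches on. They received tamoxifen every other day and 3 livers were collected on day 7. The 3 control livers came from Cre-negative *Hnf4a* fl/fl mice without tamoxifen according to the methods. A supplementary legend gives the same genotype without tamoxifen instead, and the sample labels call these mice WT. Deletion, Cre and tamoxifen therefore cannot be told apart in this comparison. RNA came from pulverized liver, so every cell type of the organ contributes, although the labels say hepatocytes. HNF4A EE (ectopic expression) cells were NIH 3T3 cells, a mouse embryonic fibroblast line, transduced with a lentivirus for mouse *Hnf4a* (isoform 2) and eGFP and compared 72 h later with control cells that carried the empty vector. There were 3 samples in each group, described as biological replicates.

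The authors' tables give 1 FPKM (fragments of a gene scaled by its transcript length and by the mapped reads) per gene and group, as their value for the 3 samples together. Values of single samples were not analysed here, the depth is unknown, and no SD, interval or test could be computed, so no difference below has a replicate check. The measure used is the log2 ratio of FPKM + 1 within a table. A gene was compared where the mean FPKM of its 2 groups was at least 1, and "higher" or "lower" means a log2 ratio at or beyond 1 in that direction, a 2-fold difference on this scale. Folds, where given, are of the FPKM themselves. *Hnf4a* itself had 144 FPKM in cKO livers and 275 FPKM in control livers (−0.93), short of the limit for lower. Exons outside the floxed part can still be counted, and the source of the remaining RNA was not tested. The paper reports depletion of the HNF4A protein in cKO livers by western blot. In the fibroblasts *Hnf4a* had 1758 FPKM in HNF4A EE cells and 0.639 FPKM in control cells. An exact 0 can be a failed estimate, since *Alb*, the gene of serum albumin, is listed at 0 in both groups of livers. The other 7 hepatocyte markers were between 3.78 and 11879.8 FPKM in cKO livers and between 8.97 and 9012 FPKM in control livers. In bulk RNA, fewer cells of a type and less RNA per cell cannot be told apart.

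Lipogenesis turns surplus carbohydrate into fat. Acetyl-CoA is carboxylated to malonyl-CoA, fatty acid synthase assembles palmitate from it, and elongases and desaturases lengthen the chain and add unsaturated bonds. Acyl chains are then joined to a glycerol backbone by acyltransferases, lipins and diacylglycerol acyltransferases. The finished triglyceride is stored in droplets coated by perilipins, exported from the liver in very low density lipoprotein, or broken down by lipases. The transcription factors SREBP1 and ChREBP are known to drive many of these genes in liver in response to insulin and glucose.

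The promoters of 4 members with large differences in these data are shown to place them beside the values: *Thrsp* and *Cideb* (lower in cKO livers), *Plin2* (higher in cKO livers and in HNF4A EE cells) and *Elovl6* (lower in HNF4A EE cells). Each is 300 bases of RefSeq sequence on GRCm38.p6, which is mm10, 250 bases before and 50 bases after the annotated start, written 5′ to 3′ on the strand of the gene. Capitals mark every match to the searched motifs on either strand. The windows are chr7:97417501-97417800 on the minus strand for *Thrsp*, chr14:55758375-55758674 on the minus strand for *Cideb*, chr4:86670010-86670309 on the minus strand for *Plin2*, and chr3:129532136-129532435 on the plus strand for *Elovl6*.
Thrsp: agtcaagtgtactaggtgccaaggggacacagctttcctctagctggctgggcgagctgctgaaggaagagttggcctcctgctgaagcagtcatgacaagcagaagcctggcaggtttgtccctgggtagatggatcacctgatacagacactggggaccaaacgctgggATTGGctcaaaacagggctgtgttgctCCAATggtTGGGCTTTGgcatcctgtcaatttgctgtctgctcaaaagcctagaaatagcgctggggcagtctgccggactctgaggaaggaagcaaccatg
Cideb: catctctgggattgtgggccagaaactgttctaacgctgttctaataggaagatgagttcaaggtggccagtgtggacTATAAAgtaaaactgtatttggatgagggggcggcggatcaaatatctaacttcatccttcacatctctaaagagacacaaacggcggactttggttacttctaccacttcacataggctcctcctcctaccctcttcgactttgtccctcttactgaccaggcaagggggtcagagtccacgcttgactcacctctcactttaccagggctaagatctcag
Plin2: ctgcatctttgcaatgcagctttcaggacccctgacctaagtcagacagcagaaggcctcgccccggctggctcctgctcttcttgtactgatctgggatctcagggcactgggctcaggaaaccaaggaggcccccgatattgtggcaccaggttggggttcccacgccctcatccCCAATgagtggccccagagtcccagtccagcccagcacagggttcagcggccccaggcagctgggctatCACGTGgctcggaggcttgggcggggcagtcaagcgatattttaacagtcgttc
Elovl6: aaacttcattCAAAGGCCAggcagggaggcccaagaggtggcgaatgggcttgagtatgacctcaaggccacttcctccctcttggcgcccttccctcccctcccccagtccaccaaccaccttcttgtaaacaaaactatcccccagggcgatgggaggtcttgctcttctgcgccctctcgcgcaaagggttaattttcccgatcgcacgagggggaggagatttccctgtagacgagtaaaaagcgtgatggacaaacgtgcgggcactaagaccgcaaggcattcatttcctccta

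The motifs were an HNF4 motif (CAAAGTCCA), a looser form of it (CAAAGNNCA, which also matches the strict one) and a sterol regulatory element (TCACCCCAC). The E-box was searched as CACGTG, which reads the same on both strands. The CCAAT box was searched by the letters of its name. The TATA box was searched as TATAAA. Of the 43 members, 36 had a promoter in the RefSeq table, and *Elovl3*, *Scd1*, *Scd2*, *Fads1*, *Dgat1*, *Dgat2* and *Cidea* did not. *Thrsp* holds the looser HNF4 motif as TGGGCTTTG at position −44, next to a CCAAT box at −52 and another on the opposite strand at −79. These positions count from the RefSeq start. In GENCODE, another annotation, *Thrsp* begins further upstream, at 97417730, and these matches lie inside the span of the gene. *Elovl6* holds it at −240, as CAAAGGCCA. *Plin2* has an E-box at −4 and a CCAAT box at −73, and *Cideb* has the letters TATAAA at −172. The looser HNF4 motif was in 4 of 36 member promoters (11.1%: *Mlxipl*, *Thrsp*, *Elovl6* and *Fitm2*) and in 7.27% of 27025 promoters of all genes. The E-box was in 7 members (19.4%) against 8.09% of all genes, the CCAAT box in 20 (55.6%) against 41.1%, and the TATA box in 2 (5.56%, *Acacb* and *Cideb*) against 15.7%. The strict HNF4 motif and the sterol element were in 0 of the 36, and in 0.555% and 0.614% of all promoters. A match is a description of letters and not a site of binding, and no match says only that these letters are not in this window.

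In cKO livers more members were lower than higher. Of the 43 members 40 were compared, and 13 were lower (32.5% of those compared) and 5 higher (12.5%), while 22 were neither. Among all 10909 genes compared in livers, 8.97% were lower and 5.08% higher. The median log2 ratio was −0.27 for the members and −0.0095 for all genes. With the 5 members left out that were under 1 FPKM in one of the groups (*Elovl3*, *Elovl7*, *Fads3*, *Pnpla3* and *Cidea*), 12 of 35 were lower and 2 higher. These 5 could be compared only through the group where they were high. Members summed to 2080 FPKM in cKO livers and 4494 FPKM in control livers, which is 0.453% of all FPKM listed for cKO livers and 0.747% for control livers. The FPKM of all genes summed to 458704 in cKO livers and 601955 in control livers. Setting these sums equal adds 0.39 to the log2 ratios, and the members' median is then 0.11, with 10 lower and 6 higher. The shift raises all genes alike, so their median of −0.0095 rises too and the members' 0.11 is no reversal against them. Shares of all genes lower or higher at this scaling were not computed. Direction words below follow the authors' scaling, on which the median of all genes is near 0.

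**Figure D1:**
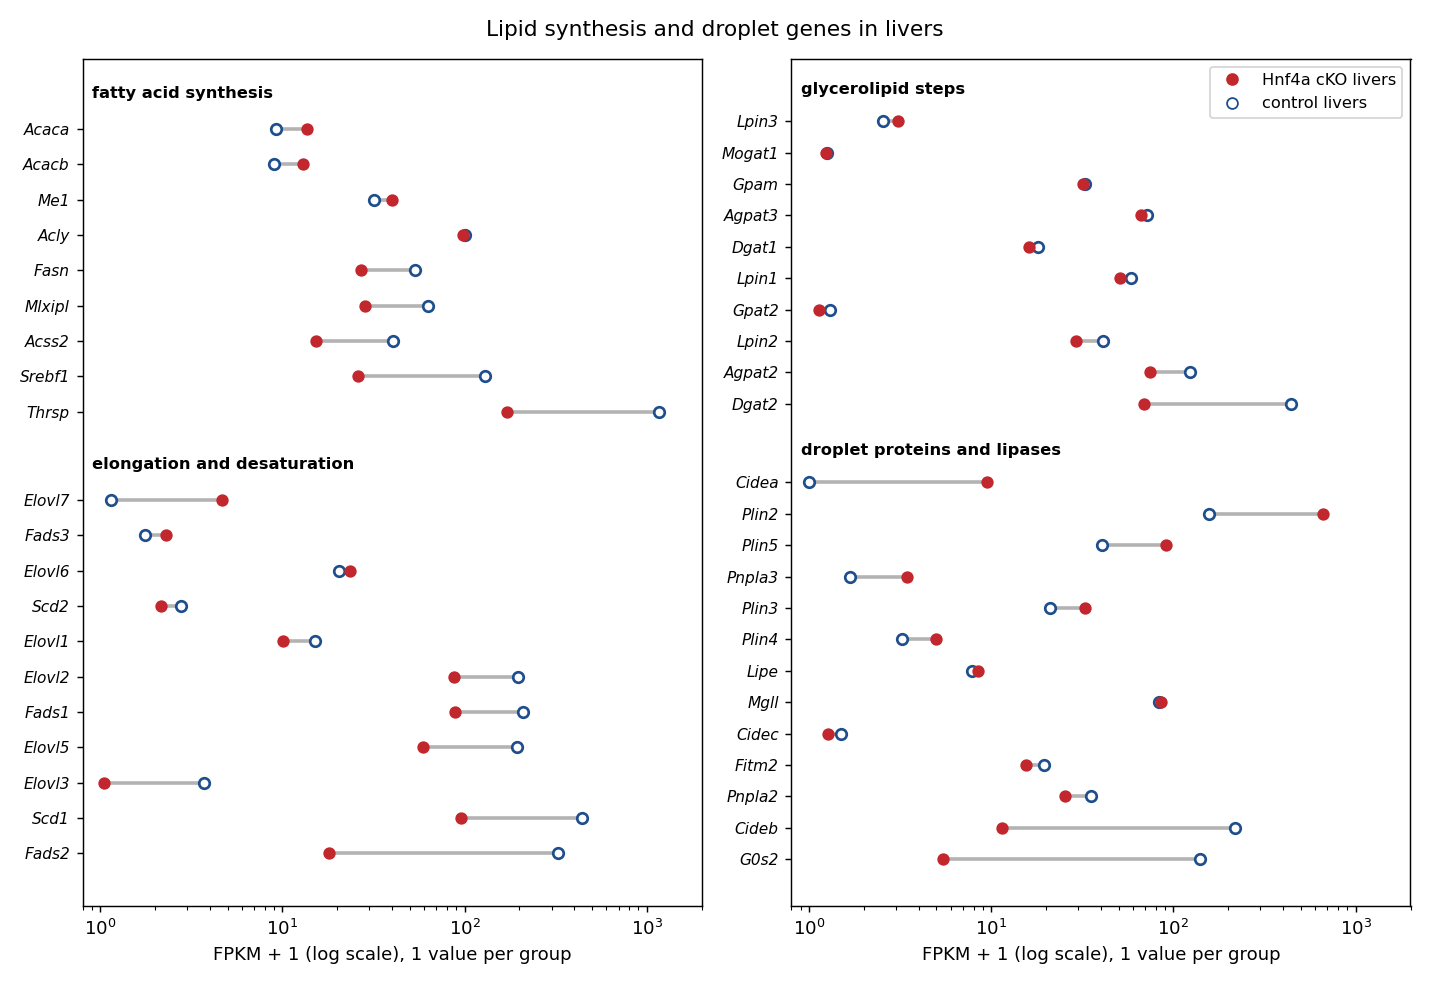
FPKM + 1 of each member in *Hnf4a* cKO livers (filled red) and control livers (open blue) on a log axis, 1 value per gene and group with no error bars, in 4 blocks by role and ordered by log2 ratio within a role. *Thrsp*, at 170 FPKM in cKO livers and 1166 FPKM in control livers, and *Fads2*, *Dgat2*, *Cideb* and *G0s2* have the long lines with control on the right, and *Plin2* is the abundant member with cKO on the right.

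Among the genes of fatty acid synthesis, the regulators were lower in cKO livers and several of the enzymes were not. Of 9 compared, 4 were lower and 0 higher. The median log2 ratio of this role was −0.99. *Thrsp*, which encodes the lipogenic protein Spot14, had 170 FPKM in cKO livers and 1166 FPKM in control livers, the highest level of any member there (log2 ratio −2.77, 6.88-fold lower). *Srebf1*, the gene of SREBP1, had 24.9 FPKM in cKO livers and 129 FPKM in control livers (−2.32). *Mlxipl*, which encodes ChREBP, had 27.5 FPKM in cKO livers and 62.2 FPKM in control livers (−1.15), and with equal FPKM sums its ratio is −0.77. All of these regulators are known to promote expression of lipogenic enzymes. *Acss2*, which makes acetyl-CoA from acetate, had 14.3 FPKM in cKO livers and 39.5 FPKM in control livers (−1.40). *Fasn*, fatty acid synthase, lay just inside the limit with 25.9 FPKM in cKO livers and 52.5 FPKM in control livers (−0.99).

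The other enzymes of the route were near their control level or above it. *Acly*, ATP citrate lyase, which makes cytosolic acetyl-CoA, had 97.5 FPKM in cKO livers and 99.0 FPKM in control livers (−0.02). The acetyl-CoA carboxylase gene *Acaca* had 12.6 FPKM in cKO livers and 8.24 FPKM in control livers (0.56). Its mitochondrial counterpart *Acacb*, known for restraining fatty acid oxidation, had 12.0 FPKM in cKO livers and 8.05 FPKM in control livers (0.53). Neither carboxylase reached the 2-fold limit. *Me1*, malic enzyme, a source of NADPH for the synthase, had 39.1 FPKM in cKO livers and 30.8 FPKM in control livers (0.34).

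Elongases and desaturases had the largest share of lower members of the 4 roles in cKO livers, 6 of 11 with 1 higher and a median log2 ratio of −1.16. The 1 higher member, *Elovl7*, 1 of the lower ones, *Elovl3*, and *Fads3* were compared only through the group where they were high. The counts and the median include them. *Fads2*, the delta-6 desaturase of polyunsaturated fatty acid synthesis, had 17.0 FPKM in cKO livers and 325 FPKM in control livers (−4.18, 19.1-fold lower). *Fads1*, the delta-5 desaturase of the same route, had 87.6 FPKM in cKO livers and 209 FPKM in control livers (−1.25). Neighbouring *Fads3*, whose product is known to act on sphingoid bases, was low in both, with 1.30 FPKM in cKO livers and 0.773 FPKM in control livers (0.37). The delta-9 desaturase *Scd1*, which makes oleate and palmitoleate, had 95.0 FPKM in cKO livers and 440.1 FPKM in control livers (−2.20). Its paralog *Scd2* was near the lower limit of comparison, with 1.15 FPKM in cKO livers and 1.79 FPKM in control livers (−0.37). *Scd1* and *Scd2* are alike in sequence, so reads could be split between them.

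The elongases of polyunsaturated chains were both lower in cKO livers. *Elovl5* had 58.0 FPKM in cKO livers and 192 FPKM in control livers (−1.71). *Elovl2* had 86.6 FPKM in cKO livers and 194 FPKM in control livers (−1.16). With equal FPKM sums *Elovl2* is at −0.77 and *Fads1* at −0.86, inside the limit. Of the elongases of saturated and monounsaturated chains, *Elovl6* had 22.5 FPKM in cKO livers and 19.5 FPKM in control livers (0.20), a difference far under 2-fold. *Elovl1*, known for very long saturated chains, had 9.05 FPKM in cKO livers and 14.2 FPKM in control livers (−0.59). *Elovl3* had 0.0464 FPKM in cKO livers and 2.70 FPKM in control livers (−1.82), and *Elovl7* had 3.66 FPKM in cKO livers and 0.147 FPKM in control livers (2.02). The last 2 are on opposite sides at low levels, and with 5 FPKM added in place of 1 neither reaches the limit (−0.61 for *Elovl3* and 0.75 for *Elovl7*).

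Of the 10 glycerolipid genes 8 were compared in livers, and 1, *Dgat2*, was lower, with 0 higher and a median log2 ratio of −0.19. *Dgat2*, an acyltransferase of the last step to triglyceride, had 67.5 FPKM in cKO livers and 441 FPKM in control livers (−2.69, 6.53-fold lower). *Dgat1*, the other diacylglycerol acyltransferase, had 15.0 FPKM in cKO livers and 17.2 FPKM in control livers (−0.18). *Dgat2* thus held 81.8% of the sum of both in cKO livers and 96.3% in control livers. *Agpat2*, a lysophosphatidic acid acyltransferase, had 73.8 FPKM in cKO livers and 123 FPKM in control livers (−0.73), and *Agpat3*, of the same family, had 65.3 FPKM in cKO livers and 71.0 FPKM in control livers (−0.12). *Gpam*, the mitochondrial enzyme of the first acylation of glycerol phosphate, had 30.8 FPKM in cKO livers and 31.7 FPKM in control livers (−0.04).

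The lipins, phosphatidate phosphatases that yield diacylglycerol, did not reach the limit. *Lpin1* had 49.9 FPKM in cKO livers and 57.5 FPKM in control livers (−0.20), *Lpin2* had 28.1 FPKM in cKO livers and 39.8 FPKM in control livers (−0.49), and *Lpin3* had 2.10 FPKM in cKO livers and 1.54 FPKM in control livers (0.29). The 2 genes of this role that were not compared were low. *Gpat2*, an acyltransferase known mainly from testis, had 0.128 FPKM in cKO livers and 0.306 FPKM in control livers, and *Mogat1*, a monoacylglycerol acyltransferase, had 0.235 FPKM in cKO livers and 0.257 FPKM in control livers.

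Droplet proteins and lipases differed in both directions, with 4 higher, 2 lower and 6 neither among 12 compared in livers and a median log2 ratio of 0.36. Of the 4 higher, *Cidea* and *Pnpla3* were compared only through cKO livers, where they were high, which leaves *Plin2* and *Plin5*. The counts and the median include all 4. The perilipins of this group were all above their control level. *Plin2*, the main droplet coat of hepatocytes, had 659 FPKM in cKO livers and 155 FPKM in control livers (2.08, 4.25-fold higher), which made it the most abundant member in cKO livers. *Plin5*, which ties droplets to mitochondria, had 89.6 FPKM in cKO livers and 39.5 FPKM in control livers (1.16). *Plin3* had 31.6 FPKM in cKO livers and 20.0 FPKM in control livers (0.64), and *Plin4* had 3.98 FPKM in cKO livers and 2.24 FPKM in control livers (0.62). Neither reached the limit, but equal FPKM sums put *Plin3* at 1.02. The perilipins together summed to 784 FPKM in cKO livers and 217 FPKM in control livers.

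The CIDE proteins, which fuse droplets and load lipid onto lipoproteins, did not share a direction in livers. *Cideb*, the hepatocyte member, known for lipidation of very low density lipoprotein, had 10.5 FPKM in cKO livers and 217 FPKM in control livers (−4.24, 20.7-fold lower). *Cidea*, known from brown fat and fatty liver, had 8.54 FPKM in cKO livers and is listed at 0 in control livers. Since that 0 can be a failed estimate, no fold and no share of the family is given. *Cidec* was under the limit of comparison, with 0.277 FPKM in cKO livers and 0.490 FPKM in control livers. Of the exon bases of *Cideb*, 71.0% overlap *Nop9* on the opposite strand in GENCODE, and the strand setting is not given in the sources used here. *Nop9* had 7.40 FPKM in cKO livers and 7.44 FPKM in control livers. *Fitm2*, an endoplasmic reticulum protein of droplet formation, had 14.4 FPKM in cKO livers and 18.4 FPKM in control livers (−0.33).

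Among the lipases and their inhibitor, *G0s2* stood at the far end of all members in livers. Its product inhibits adipose triglyceride lipase, and it had 4.47 FPKM in cKO livers and 138 FPKM in control livers (−4.67, 31.0-fold lower). The lipase it inhibits is encoded by *Pnpla2*, which had 24.3 FPKM in cKO livers and 34.4 FPKM in control livers (−0.48). *Lipe*, hormone-sensitive lipase, had 7.48 FPKM in cKO livers and 6.89 FPKM in control livers (0.10). *Mgll*, monoacylglycerol lipase, had 84.8 FPKM in cKO livers and 82.3 FPKM in control livers (0.04). The 3 lipases of the stepwise breakdown thus differed by less than 2-fold. *Pnpla3*, a droplet protein related to *Pnpla2*, had 2.47 FPKM in cKO livers and 0.686 FPKM in control livers (1.04), and 0.39 with 5 FPKM added.

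Markers of other cells and of the clock were set beside these values. The 6 adipocyte markers summed to 0.187 FPKM in cKO livers and 0.469 FPKM in control livers, with *Adipoq* and *Lep* listed at 0 in cKO livers, so the defining markers of adipocytes were at or near 0 in both groups. Of 6 macrophage markers (sum 166 FPKM in cKO livers and 186 FPKM in control livers) and 6 endothelial markers (58.4 FPKM in cKO livers and 75.5 FPKM in control livers), 0 were higher or lower. Of 7 stellate cell or fibroblast markers *Reln* was lower, and the list summed to 110 FPKM in cKO livers and 142 FPKM in control livers. Of 6 cholangiocyte markers *Sox9* was higher, with 6.77 FPKM in cKO livers and 0.536 FPKM in control livers (2.34). The whole cholangiocyte list summed to 33.0 FPKM in cKO livers and 28.9 FPKM in control livers. Of 6 neutrophil markers only *S100a8* and *S100a9* were compared, and both were higher. *S100a8* had 17.5 FPKM in cKO livers and 1.45 FPKM in control livers, and *S100a9* had 17.3 FPKM in cKO livers and 1.81 FPKM in control livers. The list summed to 35.6 FPKM in cKO livers and 3.64 FPKM in control livers, most of it from these genes. *Ltf*, *Camp*, *Mpo* and *Ngp* were at most 0.405 FPKM in cKO livers and 0.204 FPKM in control livers. *Mpo* was at 0.0153 FPKM in cKO livers and 0.0183 FPKM in control livers. Of 8 clock genes 5 were lower and 2 higher. *Dbp* had 1.44 FPKM in cKO livers and 97.3 FPKM in control livers, and *Arntl* had 15.3 FPKM in cKO livers and 0.807 FPKM in control livers. *Sox9* and the clock genes *Arntl*, *Npas2* and *Ciart* were under 1 FPKM in 1 group and were compared only through the other. The marker counts include them. The part of the differences of *S100a8*, *S100a9* and the clock genes in the results for the members was not tested.

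In HNF4A EE cells 27 of the 43 members were compared, and 7 were higher (25.9% of those compared) and 3 lower (11.1%), while 17 were neither. Among all 10521 genes compared in these cells, 9.11% were higher and 8.17% lower. The median log2 ratio was 0.26 for the members and −0.0118 for all genes. *Cideb* was compared only through its level in HNF4A EE cells, and without it 6 of 26 were higher and 3 lower. The other 16 members had a mean under 1 FPKM, among them *Thrsp*, *Mlxipl*, *G0s2* and *Plin5*. Members summed to 881 FPKM in HNF4A EE cells and 994 FPKM in control cells, 0.184% and 0.188% of the FPKM of all genes. The 7 hepatocyte markers other than *Alb* were at most 0.935 FPKM in HNF4A EE cells and 0.0215 FPKM in control cells.

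**Figure D2:**
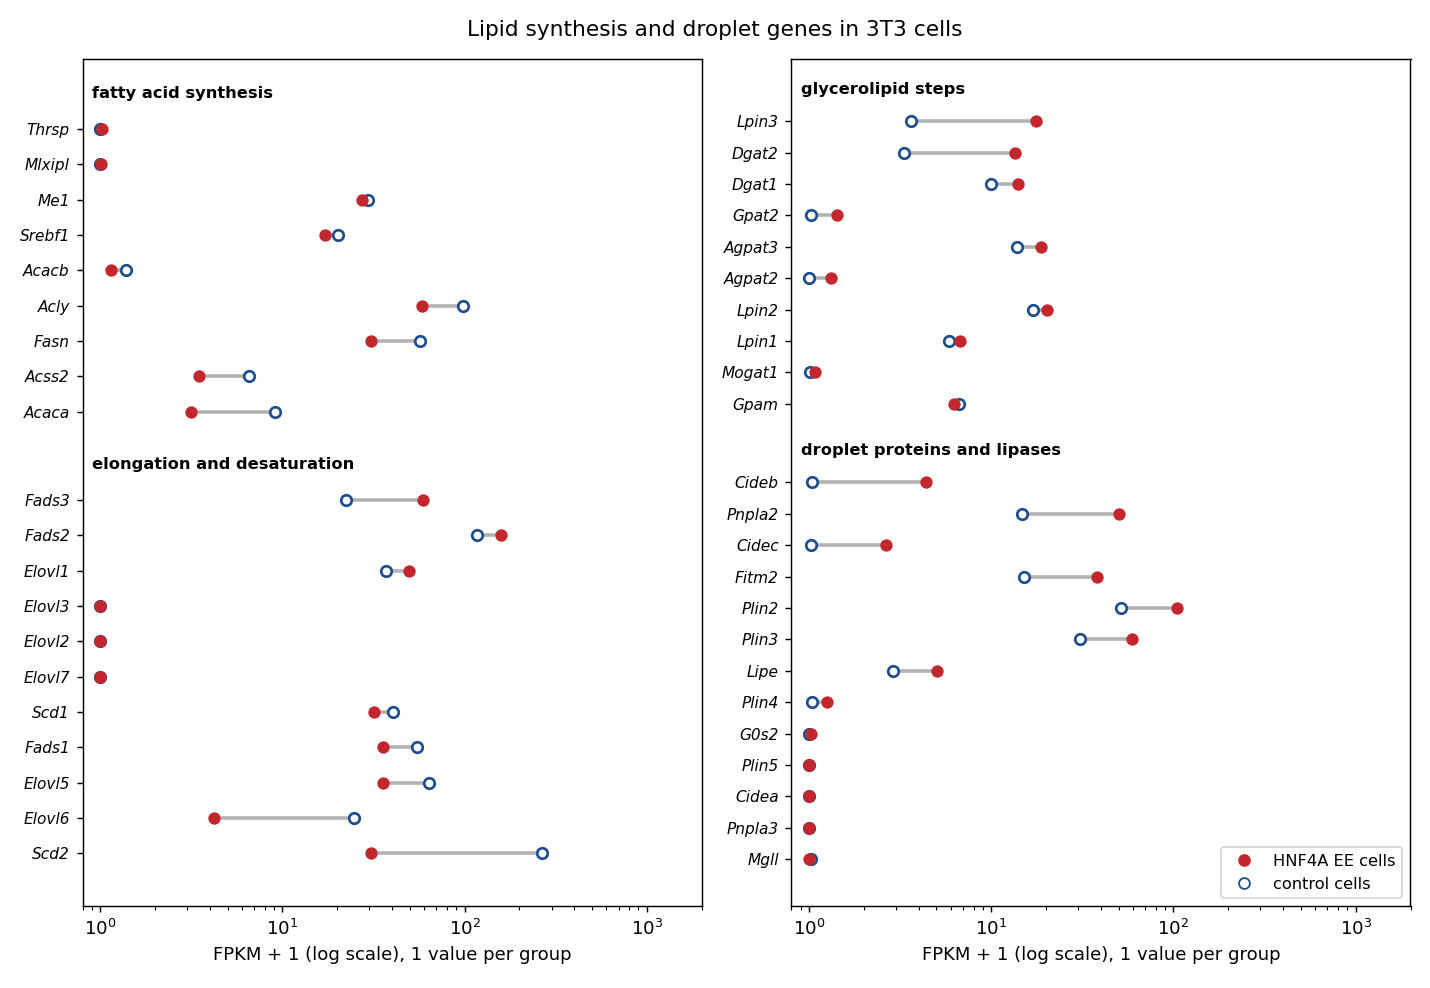
FPKM + 1 of each member in HNF4A EE cells (filled red) and control 3T3 cells (open blue) on a log axis, 1 value per gene and group with no error bars, laid out as for the livers. *Scd2*, at 29.7 FPKM in HNF4A EE cells and 264 FPKM in control cells, has the longest line to the right for control, and the compared droplet proteins and lipases all have HNF4A EE on the right.

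All 6 compared genes of fatty acid synthesis had a log2 ratio below 0 in HNF4A EE cells as scaled by the authors (*Me1* is at 0.03 with equal FPKM sums), and 1 of them passed the limit. Their median was −0.82. That gene was *Acaca*, with 2.16 FPKM in HNF4A EE cells and 8.08 FPKM in control cells (−1.52, 3.74-fold lower). *Acss2* had 2.47 FPKM in HNF4A EE cells and 5.55 FPKM in control cells (−0.91). *Fasn* had 29.6 FPKM in HNF4A EE cells and 55.6 FPKM in control cells (−0.89). These enzymes lay on the same side as *Acly*, with 57.2 FPKM in HNF4A EE cells and 96.5 FPKM in control cells (−0.75). *Srebf1* had 16.1 FPKM in HNF4A EE cells and 19.3 FPKM in control cells (−0.25), and *Me1* had 26.5 FPKM in HNF4A EE cells and 28.6 FPKM in control cells (−0.11). *Acacb* was at 0.149 FPKM in HNF4A EE cells and 0.381 FPKM in control cells. *Mlxipl* and *Thrsp* were at most 0.0202 FPKM in HNF4A EE cells and listed at 0 in control cells.

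Elongases and desaturases had 2 lower and 1 higher of 8 compared in the fibroblasts, with a median log2 ratio of −0.48. *Scd2*, the most abundant member in control cells, had 29.7 FPKM in HNF4A EE cells and 264 FPKM in control cells (−3.11, 8.90-fold lower). *Scd1* had 30.7 FPKM in HNF4A EE cells and 39.2 FPKM in control cells (−0.34). *Scd2* therefore held 49.1% of the sum of both in HNF4A EE cells and 87.1% in control cells. *Elovl6*, the elongase of palmitate, had 3.19 FPKM in HNF4A EE cells and 23.9 FPKM in control cells (−2.57, 7.48-fold lower). *Elovl5* had 34.6 FPKM in HNF4A EE cells and 63.0 FPKM in control cells (−0.85), and *Elovl1* had 48.5 FPKM in HNF4A EE cells and 35.9 FPKM in control cells (0.43). *Elovl2*, *Elovl3* and *Elovl7* are listed at 0 in both groups.

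The fatty acid desaturases lay apart from each other. *Fads3* had 58.4 FPKM in HNF4A EE cells and 21.3 FPKM in control cells (1.42, 2.75-fold higher). *Fads2*, the most abundant member in HNF4A EE cells, had 158 FPKM in HNF4A EE cells and 116 FPKM in control cells (0.44). *Fads1* had 34.8 FPKM in HNF4A EE cells and 53.6 FPKM in control cells (−0.61).

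Of 7 compared glycerolipid genes 2 were higher and 0 lower in HNF4A EE cells, with a median log2 ratio of 0.45. *Lpin3* had 16.7 FPKM in HNF4A EE cells and 2.62 FPKM in control cells (2.29, 6.36-fold higher). *Dgat2* had 12.4 FPKM in HNF4A EE cells and 2.33 FPKM in control cells (2.01, 5.34-fold higher). *Lpin3* held 40.1% of the FPKM of the lipins in HNF4A EE cells and 11.2% in control cells, and *Dgat2* held 48.9% of the sum of both *Dgat* genes in HNF4A EE cells and 20.7% in control cells. *Dgat1* had 13.0 FPKM in HNF4A EE cells and 8.91 FPKM in control cells (0.49), *Lpin2* had 19.2 FPKM in HNF4A EE cells and 15.9 FPKM in control cells (0.26), and *Lpin1* had 5.72 FPKM in HNF4A EE cells and 4.87 FPKM in control cells (0.20). The acyltransferases of the early steps were within 2-fold of control. *Agpat3* had 17.8 FPKM in HNF4A EE cells and 12.8 FPKM in control cells (0.45), and *Gpam* had 5.25 FPKM in HNF4A EE cells and 5.63 FPKM in control cells (−0.08). *Gpat2*, *Agpat2* and *Mogat1* were at most 0.424 FPKM in HNF4A EE cells and at most 0.0214 FPKM in control cells.

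Droplet proteins and lipases were above control in HNF4A EE cells for all 6 compared, 4 of them past the limit, and the median log2 ratio was 1.18. *Pnpla2* had 49.2 FPKM in HNF4A EE cells and 13.7 FPKM in control cells (1.77, 3.58-fold higher). *Fitm2* had 37.1 FPKM in HNF4A EE cells and 14.2 FPKM in control cells (1.32). *Plin2* had 104 FPKM in HNF4A EE cells and 50.6 FPKM in control cells (1.03). It sat at the edge of the limit, and at 0.97 with 5 FPKM added. *Plin3* had 58.4 FPKM in HNF4A EE cells and 29.6 FPKM in control cells (0.96), and *Lipe* had 4.06 FPKM in HNF4A EE cells and 1.88 FPKM in control cells (0.81). *Cideb* had 3.41 FPKM in HNF4A EE cells and 0.0349 FPKM in control cells (2.09), and *Nop9*, which overlaps it, had 24.7 FPKM in HNF4A EE cells and 21.7 FPKM in control cells. *Cidec*, with 1.64 FPKM in HNF4A EE cells and 0.0226 FPKM in control cells, had a mean under 1 and was not compared. *Plin4* had 0.260 FPKM in HNF4A EE cells and 0.0432 FPKM in control cells. *Cidea* and *Plin5* are listed at 0 in both groups, and *G0s2*, *Pnpla3* and *Mgll* were at most 0.0259 FPKM in HNF4A EE cells and 0.0321 FPKM in control cells.

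Markers of the fibroblast state and of other cells were set beside these values too. The collagen genes *Col1a1*, *Col1a2* and *Col3a1* were lower, at 3.95, 6.61 and 0.533 FPKM in HNF4A EE cells against 123, 443 and 35.0 FPKM in control cells. Of the cholangiocyte list 2 were compared and *Spp1* was lower, with 37.7 FPKM in HNF4A EE cells and 425 FPKM in control cells (−3.46). Of the macrophage list 2 were compared and *Csf1r* was higher, with 2.70 FPKM in HNF4A EE cells and 0.0233 FPKM in control cells (1.86), while *Adgre1*, *Clec4f*, *Vsig4* and *Cd5l* are listed at 0 in both groups. Of the neutrophil list *S100a8* alone was compared and was higher, with 8.24 FPKM in HNF4A EE cells and 0.337 FPKM in control cells (2.79). Of 7 clock genes compared, *Dbp* was lower, with 0.580 FPKM in HNF4A EE cells and 5.10 FPKM in control cells (−1.95), and 6 were neither. *Col3a1*, *Csf1r*, *S100a8* and *Dbp* were under 1 FPKM in 1 group and were compared only through the other. The 6 endothelial markers had means under 1 FPKM and were not compared. The 6 adipocyte markers summed to 0.103 FPKM in HNF4A EE cells and 0.0462 FPKM in control cells. The part of these marker differences in the results for the members was not tested.

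**Figure D3:**
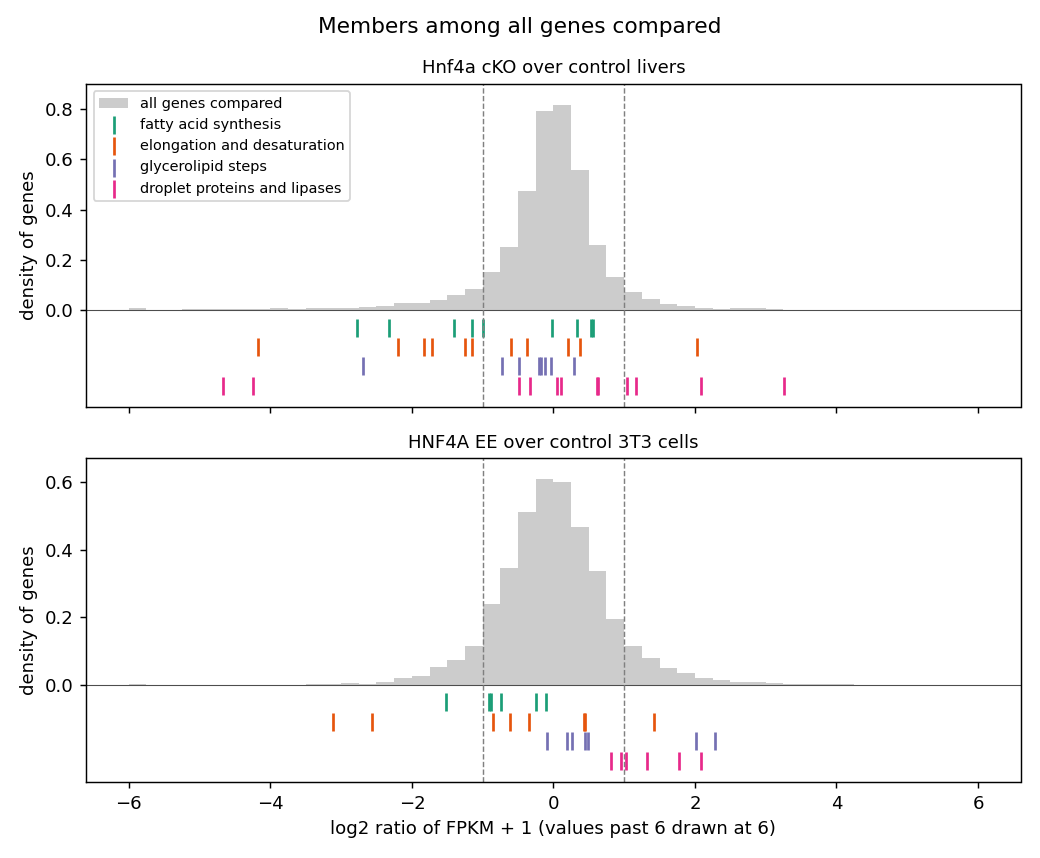
Density of the log2 ratio of FPKM + 1 over all genes compared (grey) in livers (top, cKO over control) and 3T3 cells (bottom, HNF4A EE over control), with a tick for each member coloured by role and dashed lines at −1 and 1. In livers 13 ticks lie at or left of −1 and 5 at or right of 1, and in 3T3 cells 3 and 7.

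A limit of 0.5 in place of 1 is that of the study's own methods, though used here without its p. At this limit 16 of 40 members compared were lower in cKO livers (40.0%) and 9 higher (22.5%). Among all genes 19.1% were lower and 14.8% higher. The added members were *Agpat2*, *Elovl1* and *Fasn* on the lower side and *Acaca*, *Acacb*, *Plin3* and *Plin4* on the higher side. In HNF4A EE cells 9 of 27 were higher (33.3%) and 8 lower (29.6%), against 22.5% and 22.9% of all genes. *Lipe* and *Plin3* were added on the higher side, and *Acly*, *Acss2*, *Elovl5*, *Fads1* and *Fasn* on the lower side.

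Of the 27 members compared in both tables, *Dgat2* and *Cideb* were lower in cKO livers and higher in HNF4A EE cells, 7.41% of the 27, where 1.41% of 8982 genes compared in both tables were. *Cideb* entered only through its level in HNF4A EE cells, and without it the count is 1 of 26 (3.85%), which is *Dgat2* alone. *Plin2*, 1 of the 27, was higher in both, as were 0.612% of the 8982 genes. The 2 comparisons share no samples. Another 6 members were lower in cKO livers and neither in HNF4A EE cells (*Acss2*, *Srebf1*, *Elovl5*, *Scd1*, *Fads1* and *Fads2*). *Fads3*, *Lpin3*, *Pnpla2* and *Fitm2* were higher in HNF4A EE cells and neither in cKO livers, and *Acaca*, *Elovl6* and *Scd2* were lower in HNF4A EE cells and neither in cKO livers. The remaining 11 were neither in both. For these other combinations the share of the 8982 genes was not computed, so the counts only list the members. Whether the effects differ between livers and cells was not tested. The tables were made separately, so levels are not set against each other across them.

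**Figure D4:**
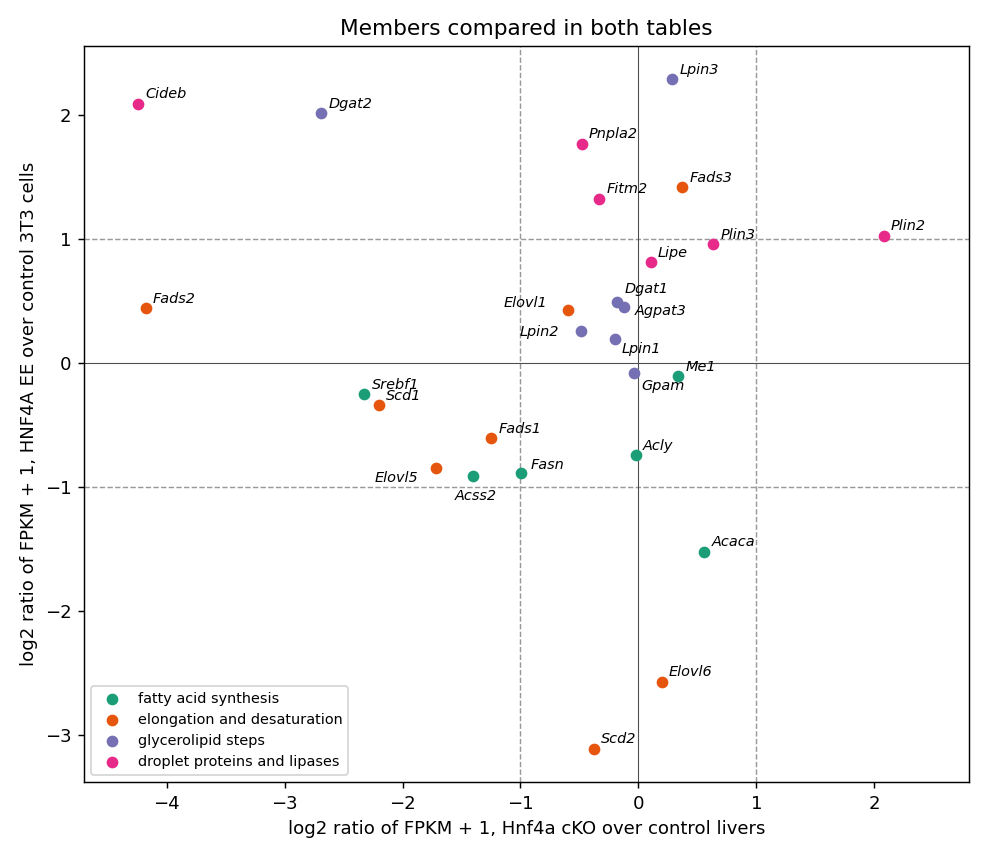
Log2 ratio of FPKM + 1 in livers (x axis, cKO over control) against that in 3T3 cells (y axis, HNF4A EE over control) for the 27 members compared in both tables, coloured by role, with dashed lines at −1 and 1. *Dgat2* and *Cideb* lie in the upper left field and *Plin2* in the upper right, and the lower left field past both lines holds 0 members. The share of all genes in that lower left field was not computed.

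A further 36 genes of the same routes that are no members were looked at in the same way. In cKO livers 29 were compared, and 3 were higher (10.3%) and 2 lower (6.90%), against 5.08% and 8.97% of all genes. Their median log2 ratio was −0.25. *Hilpda*, a droplet protein that like G0S2 inhibits adipose triglyceride lipase, had 19.1 FPKM in cKO livers and 1.68 FPKM in control livers (2.90). *Slc25a1*, the mitochondrial citrate carrier that feeds lipogenesis, had 31.5 FPKM in cKO livers and 121 FPKM in control livers (−1.91). *Hacd2*, a dehydratase of the elongation cycle, had 44.1 FPKM in cKO livers and 17.4 FPKM in control livers (1.29). *Insig2*, which holds SREBP precursors in the endoplasmic reticulum, had 110.3 FPKM in cKO livers and 48.1 FPKM in control livers (1.18). *Fitm1*, a paralog of *Fitm2* named here after its values were seen, had 0.309 FPKM in cKO livers and 7.99 FPKM in control livers (−2.78). *Fitm1* was compared only through control livers, where it was high, and the 2 lower genes include it. *Pparg*, a nuclear receptor of fat storage, had 4.48 FPKM in cKO livers and 5.37 FPKM in control livers (−0.22), and was also named after its values were seen.

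In HNF4A EE cells 28 of the 36 were compared, and 7 were higher (25%) and 2 lower (7.14%), against 9.11% and 8.17% of all genes. Their median log2 ratio was −0.17. *Mogat2*, a monoacylglycerol acyltransferase, had 20.1 FPKM in HNF4A EE cells and 1.90 FPKM in control cells (2.86). *Gpat3*, a glycerol phosphate acyltransferase listed as *Agpat9*, had 31.9 FPKM in HNF4A EE cells and 7.37 FPKM in control cells (1.97). *Abhd5*, the activator of adipose triglyceride lipase, had 45.6 FPKM in HNF4A EE cells and 13.4 FPKM in control cells (1.70). The remaining higher genes belong to mitochondrial fatty acid synthesis (*Oxsm*), the elongation cycle (*Hacd2* and *Hacd3*) and the partner of ChREBP (*Mlx*). *Oxsm* had 10.2 FPKM in HNF4A EE cells and 3.08 FPKM in control cells (1.46), *Hacd2* had 20.0 FPKM in HNF4A EE cells and 7.77 FPKM in control cells (1.26), *Hacd3* had 53.3 FPKM in HNF4A EE cells and 23.5 FPKM in control cells (1.15), and *Mlx* had 21.7 FPKM in HNF4A EE cells and 10.2 FPKM in control cells (1.02). The lower genes belong to sterol control. *Srebf2*, the gene of SREBP2, had 12.5 FPKM in HNF4A EE cells and 51.7 FPKM in control cells (−1.97), and its target *Insig1* had 13.5 FPKM in HNF4A EE cells and 52.1 FPKM in control cells (−1.88).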

How the data were processed

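RNA-seq of 12 mouse samples in 4 groups of 3 was analysed. The authors aligned reads to mm10 and made the deposited FPKM, and the submitters' processing notes name STAR 2.5.0b and Cufflinks 2.2.1. The annotation, the strand setting and how libraries were scaled were not given in the sources used here. Both deposited tables have the layout of Cuffdiff, with 1 FPKM per gene and group and the authors' own fold changes, test statistics, p-values and q-values, which were not used. Groups follow the sample labels and each column the name of its group. With no counts, the depth and the precision of each value are unknown.

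Log2 ratios of FPKM + 1 were computed within a table (Python 3.11.15, pandas 2.3.3, numpy 2.4.6, matplotlib 3.10.9) for genes with a mean FPKM of at least 1 and called at a log2 ratio of 1. FPKM is a share of a library, so a change in abundant genes moves all others. No test across samples could be run. The calling step was run on control values in which known changes were placed, larger than the limit and without noise. Their recovery shows only that the step computes as written, and tells nothing of noise or low levels. The members, the pathway and marker lists, the motifs and the limits were chosen with earlier results of these data known, and the looser HNF4 motif and the TATA box were added after motif counts were seen. All 43 members are named, other pathway genes where the log2 ratio was at or beyond 1 and the mean FPKM at least 5, and promoters are printed for 4 members with large differences, picked after their values were seen. Gene positions and overlaps are from GENCODE on GRCm38 and promoters from RefSeq on GRCm38.p6. Alternatives were the limit, the pseudocount, the minimum FPKM and 2 scalings.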

Additional observations from a re-analysis of the deposited data

How the results depend on the processing

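No paired analysis was possible because the tables hold 1 FPKM per group, and for the same reason no replicate could be left out. Each value rests on an unknown depth. In livers, a limit of 0.5 gave 9 higher members and a limit of 2 gave 10 called, 3 higher and 7 lower. Higher members in livers numbered 3 with 5 FPKM added and 2 with a mean of at least 5 FPKM. The median log2 ratio of members in livers was 0.11 with equal FPKM sums, against −0.27 as scaled by the authors. This scaling raises the median of all genes as well. In 3T3 cells a limit of 0.5 gave 17 called with 8 lower, and a limit of 2 gave 5 called with 3 higher. Members higher in both tables numbered 2 at a limit of 0.5, 0 at a limit of 2, 0 with 5 FPKM added and 2 with equal FPKM sums. Members lower in cKO livers and higher in HNF4A EE cells numbered 1 with 5 FPKM added and 1 with a mean of at least 5 FPKM. Of 67 ratios of single members, 62 kept their side of the limit with equal FPKM sums and 61 with 5 FPKM added. With 0.1 FPKM added 64 kept it, and 67 did when centred on the median of all genes. No call could change sign under these settings. Added FPKM keep the sign of a ratio, and the scalings shift ratios by less than the limit of 1.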

Other observations

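Several members lie near each other in the genome, in 3 clusters. On chromosome 19 of GRCm38 (GENCODE), *Fads3* spans 10041569 to 10060110, *Fads2* 10062765 to 10101746 and *Fads1* 10182888 to 10196877. Their log2 ratios of FPKM + 1 in cKO over control livers were 0.37, −4.18 and −1.25 in that order, and in HNF4A EE over control cells 1.42, 0.44 and −0.61. On the same chromosome *Scd2* spans 44293674 to 44306864 and *Scd1* 44394455 to 44407709. In cKO over control livers their log2 ratios were −0.37 and −2.20, and in HNF4A EE over control cells −3.11 and −0.34, although reads could be split between these paralogs. On chromosome 17, *Plin4* spans 56100591 to 56109803, *Plin5* 56111601 to 56117596 and *Plin3* 56277476 to 56290511, with log2 ratios in cKO over control livers of 0.62, 1.16 and 0.64, all above 0. These neighbours were picked after their values were seen and have no test.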
